A study of Mus musculus with 39 samples.

Results

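The arrays described here compare mice that ate a high fat, high sucrose diet with a formulation named KAL-1 at 75 µg (HF75) with mice that ate a low fat diet (LFC). The members were chosen by label, as the LFC and HF75 arrays of Week 3, 9, 12, 15 and 18, the weeks at which both diets were measured, and they are 10 of the 39 arrays of the series, 5 against 5, paired by week. The study followed cells taken from brown fat of C57BL/6J mice, a common laboratory strain, on 5 diets. The series asked how diet and dose moved expression over time. Mice were weaned at 3 to 4 weeks of age and put on a diet in groups of 30. The LFC group received 10% of its calories from fat and no KAL-1, whereas the HF75 group received 60% of its calories from fat, added sucrose and KAL-1, an ethano-botanical formulation whose dose the labels give as 75 µg without saying per what. The same high fat diet without KAL-1 (HFC, 5 arrays at the same weeks) is used for side by side values. 5 animals per diet were sacrificed every 3 weeks, and each diet has 1 array per week. Whether an array holds the RNA of 1 animal or of several is not said in the labels, and so the spread given below is the spread over the 5 weeks, which holds change over time, animal and array together. The question asked of these arrays was which genes stayed away from the low fat level under the highest dose.

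Brown fat burns fatty acids to make heat, and Ucp1, the uncoupling protein of the inner mitochondrial membrane, lets protons flow back without making ATP. Brown fat cells also make fatty acids from sugar through Acly, Acaca, Fasn and Scd1, a route that insulin and carbohydrate raise and that fat in the diet is known to lower. The tissue holds macrophages, other immune cells and vessel cells besides the fat cells, and a fat-rich diet is known to change their number and state in several fat depots.

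According to the labels the samples are macrophages that infiltrate brown fat, or stromal vascular cells, a preparation that should lack fat cells. A level is here the log2 of the processed signal of a probe minus the 75th percentile of its array, so that 0 is the 75th percentile. The macrophage gene Emr1 was well above background on all 10 arrays, at levels of 0.44 to 3.08. Fat cell genes were well above background on all 10 arrays as well, with Adipoq at 3.00 to 7.04, Cidea at 5.54 to 9.09 and Ucp1 at 3.83 to 8.55, although Lep was on 2 LFC arrays and 1 HF75 array only. The arrays thus do not hold macrophage RNA alone. In such bulk RNA, more cells of a type and more RNA per cell cannot be told apart.

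The arrays differed in brightness. The 75th percentile of the signal lay between 24.1 and 1289 intensity units in LFC and between 21.9 and 735 in HF75, while spots well above background made up 32.3% to 74.4% in LFC and 37.8% to 72.7% in HF75. 3 arrays carry the letters BA in their titles, which the labels do not explain, namely LFC Week 12, LFC Week 18 and HF75 Week 15, and the brightest array of each diet is among them. No probe had an equal value on any 2 of the 10 arrays. On the bright arrays the strongest genes reached the scanner's limit (Scd1, Fasn, Ucp1, Adipoq, Cox8b, Car3 and Cidea on both LFC Week 12 and HF75 Week 15), and Fasn and Cidea on LFC Week 18 as well, so their levels there are lower bounds. Acadvl was saturated on the same 2 arrays, Acly on LFC Week 12 and Cfd on HF75 Week 15. For such a gene the difference of HF75 to LFC is an upper bound at Week 12 and a lower bound at Week 15, its mean over 5 weeks mixes both, and the mean over the weeks without a saturated spot is given beside it. On LFC Week 12 saturation held 10 of 17 lipogenesis genes, 12 of 21 of lipid storage and lipolysis, 8 of 13 general adipocyte, 10 of 18 fatty acid oxidation and 15 of 19 respiratory chain genes, and on HF75 Week 15 it held 3, 9, 6, 10 and 14 of them, so the medians of these lists in these weeks rest on bounds too.

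**Figure D1:**
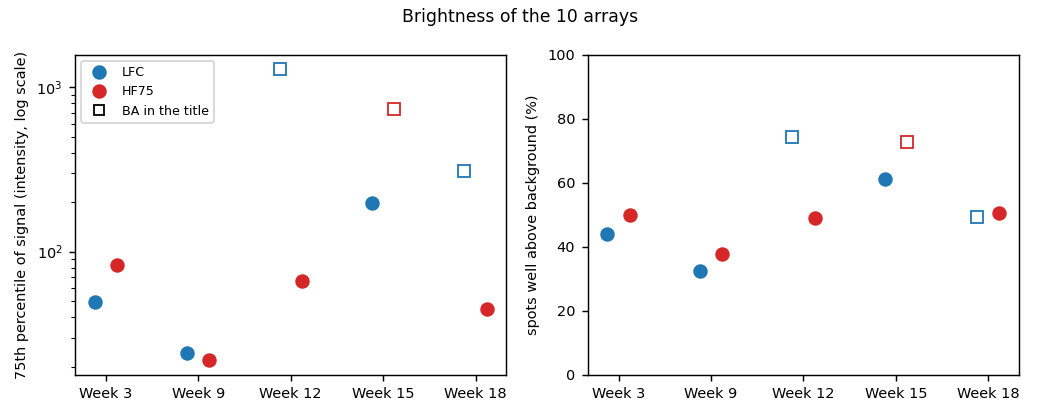
Each point is 1 array, LFC in blue and HF75 in red, with the week on the x axis and open squares for the 3 arrays with BA in the title. The left panel gives the 75th percentile of the processed signal in intensity units on a log axis and the right panel the percent of spots well above background. LFC Week 12 (1289 units) and HF75 Week 15 (735 units) are the brightest.

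No probe passed the test between HF75 and LFC. Of 21902 probes measured, 0 had an adjusted p under 0.05 (limma, paired by week, Benjamini-Hochberg, 0% called), and the smallest adjusted p was 0.690, while 1333 had an unadjusted p under 0.05. Read from 1 probe each, 16670 genes had a median difference of -0.05 on the log2 scale, and 47.6% of them were higher in HF75. The median gene had an SD of 1.38 (log2) between the 5 week differences. In data simulated at this spread, 0% of probes changed 2-fold or 4-fold and 84.5% of those changed 16-fold passed the test, and the absence of calls does not show that the diets gave alike levels. The values that follow are therefore descriptions of the 10 arrays, and every gene named had an adjusted p in limma of 0.690 or above.

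Lists of known function, 27 in number, held 373 measured genes, and 0 of these passed the test. 11 of the 373 list genes were lower in HF75 in all 5 weeks, or 2.95%, and 8 were higher in all 5 weeks, or 2.14%. For 3 of the 8 (Ucp1, Cox8b and Car3) the LFC level of Week 12 is a lower bound, so the direction of that week is not established. Among all genes tested, 6.02% were lower and 3.55% higher in all 5 weeks. With an unadjusted p under 0.05 in limma, 9 list genes were higher and 10 lower, and among all genes tested these were 4.55% and 1.72%. Only the circadian clock and the endoplasmic reticulum (ER) stress lists had a median below 0 in every week, and no list had a median above 0 in every week. In 25 of the 27 lists the medians of Week 12 and Week 15 differed in sign. LFC is the array titled BA at Week 12 and HF75 at Week 15. Although of different diets, these 2 arrays had the highest correlation of the 45 pairs among the 10 arrays, 0.979 beside a median of 0.871. LFC Week 18, also titled BA, correlated with them at 0.871 and 0.862. What the letters stand for could not be tested.

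**Figure D2:**
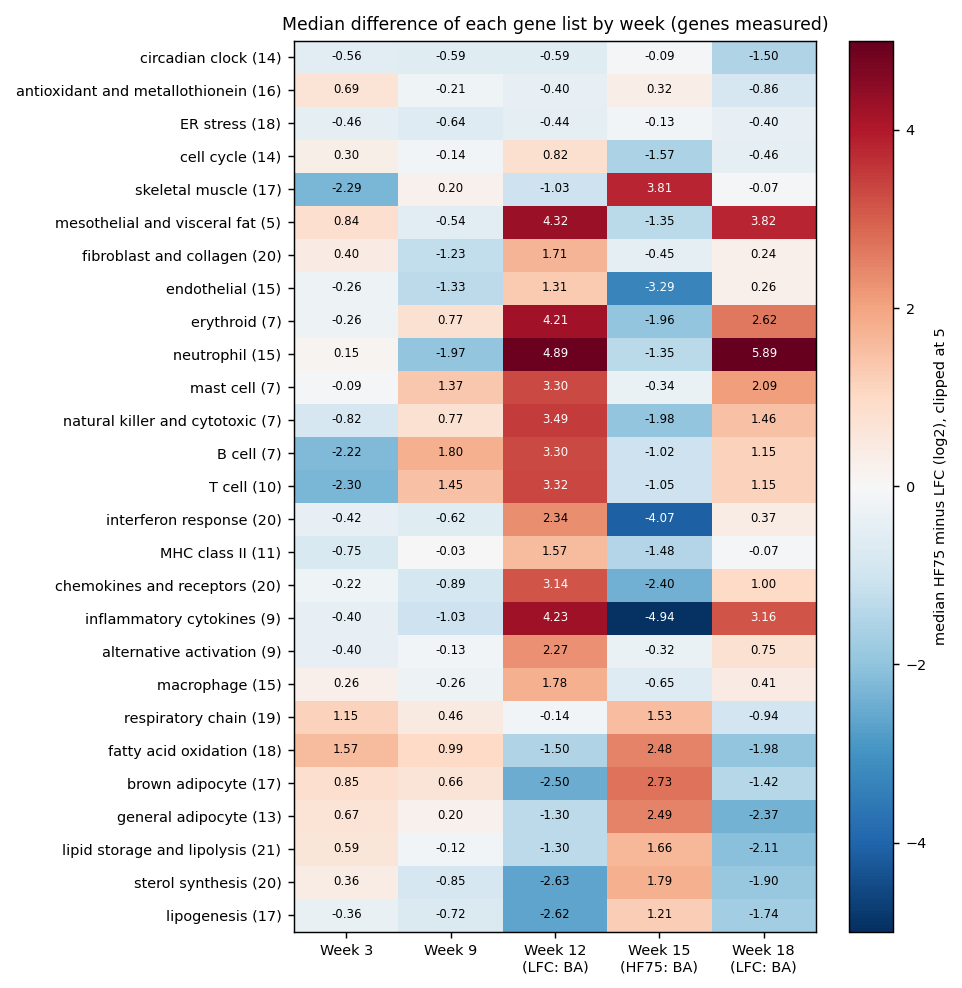
Each cell gives the median difference, HF75 minus LFC on the log2 scale, of 1 gene list (y axis, with the number of genes measured) in 1 week (x axis), red for higher and blue for lower in HF75. Circadian clock and ER stress are the lists below 0 in all 5 weeks, while most others turn sign between Week 12 and Week 15, the weeks in which LFC and HF75 respectively carry BA in the title.

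The enzymes of fatty acid synthesis had lower mean levels in HF75 than in LFC. Of the 17 measured genes of the list, 16 were lower and 1 was higher, with a median difference of -0.97 (log2) beside -0.05 for all genes. 3 of them (Scd1, Acly and Elovl5) had an unadjusted p under 0.05 in limma and 0 passed the adjusted test. The median of the list by week was -0.36, -0.72, -2.62, 1.21 and -1.74 at Week 3, 9, 12, 15 and 18. It was thus above 0 at Week 15, and it was -1.69 without that week, -0.40 over Week 3 and 9 alone, -0.50 without Week 12 and -0.60 with the title letters as a covariate. With the weeks of a saturated spot left out for each gene it was -0.52.

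Scd1, the desaturase that makes oleic from stearic acid, was lower in HF75 in all weeks but Week 15. Its level was 5.21, 7.91, 5.73, 5.60 and 7.42 on the LFC arrays of Week 3, 9, 12, 15 and 18, and 3.12, 3.10, 3.94, 6.55 and 2.85 on the HF75 arrays. LFC Week 12 and HF75 Week 15 are lower bounds, and HF75 Week 15 was at least 0.95 above LFC. The mean of the measured differences was -2.46 ± 0.87 (SE, log2, n = 5 weeks), with an adjusted p in limma of 0.690, and it was -3.82 with an SD of 1.503 over Week 3, 9 and 18, the weeks without a saturated spot. Acly, which makes acetyl-CoA from citrate in the cytosol, was at 5.94, 4.88, 5.57, 3.66 and 1.51 in LFC and at 2.30, 2.96, 0.98, 4.41 and 0.43 in HF75. It was also lower in 4 of 5 weeks, with the exception again at Week 15, and its difference was -2.09 ± 0.80, or -1.47 with an SD of 1.83 without Week 12, where LFC is a lower bound.

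Elovl5, an elongase of polyunsaturated fatty acids, was the one gene of the list that was lower in all 5 weeks, and it was chosen after its values were seen. It was at 3.24, 3.09, 3.84, 4.30 and 3.46 in LFC and at 3.01, 2.04, 2.79, 2.33 and 1.95 in HF75, so that all HF75 arrays lay below all LFC arrays. Its difference was -1.16 ± 0.43 (SE, log2), and its other probe gave -1.37. Groups that did not overlap were found for 1.46% of all genes. Fasn, the fatty acid synthase itself, was at 7.41, 9.08, 5.58, 8.25 and 7.05 in LFC and at 7.45, 8.36, 6.83, 6.42 and 5.76 in HF75. Its measured difference was -0.51 ± 0.55, and -0.34 over Week 3 and 9, the weeks without a saturated spot, while a second probe of the gene gave -1.79. Among the regulators, Srebf1 differed by -0.84 and Mlxipl by -1.48, and neither had an unadjusted p under 0.05.

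The sterol synthesis list lay in the same direction. Of 20 genes 19 had lower means and 1 a higher mean in HF75, and the median difference was -0.68. It was not steady over time, with week medians of 0.36, -0.85, -2.63, 1.79 and -1.90, and it was -0.28 without Week 12, -1.23 without Week 15 and -0.31 with the title letters as a covariate. 1 of 20, Srebf2, had an unadjusted p under 0.05. Srebf2, the transcription factor that drives this pathway, was lower in all 5 weeks, by 0.64 to 2.04 (log2), and was chosen after its values were seen; its probe was well above background on 4 LFC and on 2 HF75 arrays. Insig1, which holds that factor's precursor in the ER, differed by -1.996 ± 1.09.

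The genes of heat production did not move as 1 group. The brown adipocyte list had a median difference of 0.05, with 9 of 17 genes higher and 8 lower, and its median was 0.65 with the title letters as a covariate and -0.84 without Week 15. Esrrg was higher in HF75 in all 5 weeks, Ucp1 and Cox8b in the 4 weeks other than Week 12, where LFC is a lower bound, and Prdm16 was lower in all 5 weeks, and except for Ucp1 these were chosen after their values were seen. Ucp1 was at 4.88, 7.33, 5.80, 6.11 and 3.83 in LFC and at 7.47, 8.55, 6.53, 6.62 and 6.23 in HF75. The measured gap at Week 12, 0.73, is an upper bound. The mean of the measured differences was 1.49 ± 0.49 (SE, log2), and it was 2.07 with an SD of 0.74 over Week 3, 9 and 18, the weeks without a saturated spot, while its second probe gave 0.95. Cox8b, a subunit of cytochrome oxidase used in muscle and brown fat, was at 5.92, 7.09, 5.88, 5.35 and 4.23 in LFC and at 6.66, 7.57, 6.45, 6.56 and 5.75 in HF75, a measured difference of 0.90 ± 0.40 with an upper bound of 0.57 at Week 12, and 0.91 with an SD of 0.54 over the weeks without a saturated spot. Neither gene passed the test.

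Prdm16, a regulator that brown fat cells need to keep their identity, lay the other way. It was at 2.08, 1.80, 1.78, 2.93 and 2.21 in LFC and at 1.40, 0.74, 0.73, 1.90 and -0.10 in HF75, and the difference was -1.22 ± 0.43 (SE, log2). The groups overlapped only because HF75 Week 15 lay above 2 of the LFC arrays. Esrrg, a nuclear receptor of oxidative tissues, differed by 2.16 ± 0.83 from a low level, being well above background on 2 LFC and on 4 HF75 arrays. Cidea, a lipid droplet protein of brown fat cells, had a measured difference of 0.19 ± 0.49, which mixes bounds at Week 12, 15 and 18, and was lower without Week 12 (-0.18) and after normexp background correction (-0.08).

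Fat cell genes outside the brown list and the oxidation lists had medians whose sign depended on the weeks used. The general adipocyte list had a median of 0.17 over 13 genes, which was -0.66 without Week 15, 0.58 with the title letters as a covariate and -0.07 over the weeks without a saturated spot. The fatty acid oxidation list had 0.27 over 18 genes, and 1.32 over Week 3 and 9, 0.74 with the covariate and -0.22 without Week 15. The respiratory chain list had 0.27 over 19 genes, and 0.81, 0.52 and -0.04 in the same order. The lipid storage and lipolysis list had -0.58 over 21 genes, and 0.23, -0.07 and -0.62. Car3, a carbonic anhydrase abundant in fat cells and muscle, was the general adipocyte gene whose measured level was higher in all 5 weeks. It was at 5.97, 5.70, 5.55, 4.35 and 6.13 in LFC and at 6.85, 7.20, 6.56, 6.35 and 6.19 in HF75. The gap at Week 12, 1.01, is an upper bound, at Week 18 the arrays were 0.06 apart, and the measured difference was 1.09 ± 0.44, or 0.81 with an SD of 0.73 over the weeks without a saturated spot. Acadvl, which starts the oxidation of long-chain fatty acids, differed by 1.37 ± 0.49 over the 4 weeks with a value in LFC, and 1.66 over the 2 of them without a saturated spot. Adipoq, the adipokine adiponectin, differed by 0.17, with a lower mean in HF75 under 5 of 20 other settings, among them normexp background correction (-0.13) and the fit over 39 arrays (-0.48). Over the weeks without a saturated spot its difference was -0.62 with an SD of 2.43.

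**Figure D3:**
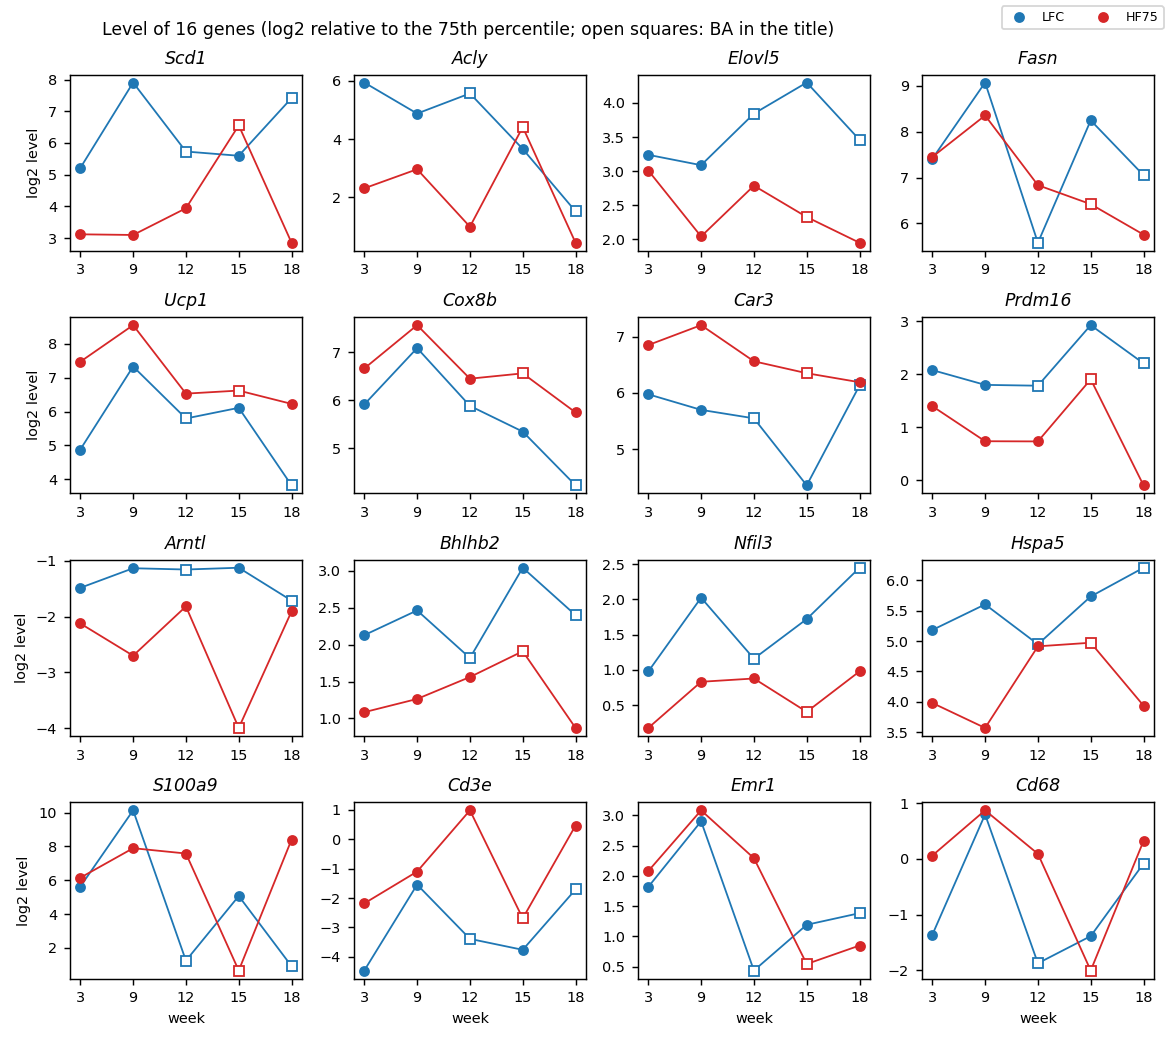
Each panel plots the level of 1 gene (y axis, log2 signal relative to the 75th percentile of the array) against the week (x axis) on the 5 LFC arrays in blue and the 5 HF75 arrays in red, 1 array per point, with open squares for BA in the title. Elovl5, Prdm16, Arntl, Bhlhb2, Nfil3 and Hspa5 are lower and Cd3e higher in HF75 at each week, and Scd1 and Acly cross at Week 15. Ucp1, Cox8b and Car3 have a higher measured level in HF75, but their LFC points of Week 12 are lower bounds, so that gap (0.73 for Ucp1) is an upper bound.

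The circadian clock list had a median difference below 0 in each week. Of its 14 genes, 12, 9, 10, 8 and 14 were lower at Week 3, 9, 12, 15 and 18. At Week 15 the mean level of the list was 0.93 in HF75 and 0.85 in LFC. The clock is a loop in which Arntl and Clock switch on genes that hold E-boxes, among them their own inhibitors of the Per and Cry families, while Nr1d1 and Nfil3 act as repressors in linked loops. Of 14 measured clock genes 12 had a lower mean in HF75, and 5 of 14 (35.7%) were lower in all 5 weeks, beside 6.02% of all genes. The list median was -0.71 (log2), with week medians of -0.56, -0.59, -0.59, -0.09 and -1.50, and it stayed below 0 under all 20 other settings, at -0.79 to -0.27. 2 of 14 had an unadjusted p under 0.05 in limma and 0 passed the adjusted test. The labels give a light and dark cycle but no hour of sacrifice, so the hour at which an array's tissue was taken could not be tested.

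To show which of these genes carry the clock's own binding letters close to the start, the 250 bases before the first listed start of a gene were searched for the E-box CACGTG, which is its own reverse complement, and the D-box TTATGNAA on both strands. The sequences are from RefSeq on GRCm38.p6, where 11 of the 14 clock genes matched. The E-box was found in 2 of the 11, Per1 and Tef, the D-box in 1, Per1, and among 32851 promoters of the same length 6.02% held the E-box and 3.07% the D-box. Arntl, Clock and Nfil3 are shown because they were lower in all 5 weeks, Per1 because it is the clock inhibitor with the E-box, and Elovl5 because it is the fatty acid gene that was lower in all 5 weeks. Each is printed 5′ to 3′ on the strand of its gene, with the E-box in capitals where there is one.
Arntl, chr7:113207215-113207464, plus strand: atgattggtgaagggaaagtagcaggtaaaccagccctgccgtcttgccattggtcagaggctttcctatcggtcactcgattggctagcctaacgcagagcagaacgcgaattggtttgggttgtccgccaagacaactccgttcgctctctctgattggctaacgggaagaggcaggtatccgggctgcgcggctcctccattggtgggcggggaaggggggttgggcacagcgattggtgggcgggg
Clock, chr5:76304793-76305042, minus strand: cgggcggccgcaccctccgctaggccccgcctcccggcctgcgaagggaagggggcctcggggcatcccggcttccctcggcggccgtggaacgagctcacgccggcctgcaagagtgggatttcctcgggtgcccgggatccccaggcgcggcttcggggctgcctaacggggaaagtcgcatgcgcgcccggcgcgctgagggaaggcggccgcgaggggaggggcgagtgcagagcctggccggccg
Nfil3, chr13:52981040-52981289, minus strand: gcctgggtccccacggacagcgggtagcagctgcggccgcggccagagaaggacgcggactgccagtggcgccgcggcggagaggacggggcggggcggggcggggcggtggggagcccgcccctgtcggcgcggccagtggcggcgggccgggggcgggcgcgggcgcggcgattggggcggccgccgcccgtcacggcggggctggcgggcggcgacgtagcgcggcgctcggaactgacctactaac
Per1, chr11:69098699-69098948, plus strand: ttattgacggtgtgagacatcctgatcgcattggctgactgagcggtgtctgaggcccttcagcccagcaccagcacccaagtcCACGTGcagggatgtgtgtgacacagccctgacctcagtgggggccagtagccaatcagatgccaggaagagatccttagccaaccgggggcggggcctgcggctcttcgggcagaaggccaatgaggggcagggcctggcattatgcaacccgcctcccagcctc
Elovl5, chr9:77917115-77917364, plus strand: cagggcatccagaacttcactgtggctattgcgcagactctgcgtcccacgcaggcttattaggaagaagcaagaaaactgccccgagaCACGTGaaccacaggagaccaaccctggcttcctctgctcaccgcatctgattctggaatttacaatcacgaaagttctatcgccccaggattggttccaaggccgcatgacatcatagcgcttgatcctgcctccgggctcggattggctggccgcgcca
The E-box starts 166 bases before the start of Per1 and 161 bases before that of Elovl5. No match in the windows of Arntl, Clock and Nfil3 says only that these letters are not there. Per1 differed by -0.77 ± 0.48 (SE, log2) and was lower in 4 of 5 weeks.

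Arntl, the partner of Clock in the activating pair, was at -1.48, -1.13, -1.15, -1.12 and -1.71 on the LFC arrays and at -2.12, -2.70, -1.82, -4.00 and -1.91 on the HF75 arrays. The groups did not overlap, and the difference was -1.19 ± 0.52 (SE, log2). Clock itself was at 0.72, 0.20, 1.26, 1.58 and 0.94 in LFC and at -0.01, -0.49, 0.27, 1.19 and -0.33 in HF75, a difference of -0.81 ± 0.39, and its other probe gave -0.64. The week differences of Clock had an SD of 0.33, smaller than that of the median gene, yet its groups overlapped.

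Bhlhb2, a repressor that competes for the E-box, was at 2.13, 2.46, 1.82, 3.04 and 2.40 in LFC and at 1.09, 1.26, 1.56, 1.91 and 0.87 in HF75. It differed by -1.03 ± 0.40 (SE, log2), and HF75 Week 15 alone lay within the LFC range. Nfil3, which represses through the D-box, was at 0.98, 2.02, 1.16, 1.72 and 2.45 in LFC and at 0.18, 0.83, 0.88, 0.41 and 0.98 in HF75. Its difference was -1.01 ± 0.40 and its other probe gave -1.18. For 2 other clock genes the probes disagreed, so their direction is uncertain. Nr1d1 was lower in all 5 weeks by its brightest probe (-0.98 ± 0.57) but higher by its other probes, which gave 0.83 to 1.63. Per2 gave -0.92 and 2.56. Without these 2 genes, 10 of the 12 other clock genes had a lower mean, 4 were lower in all 5 weeks, and the median was -0.58. Bhlhb2, Nfil3 and Nr1d1 were chosen for these sentences after their values were seen. Dbp and Hlf, output genes of the clock, differed by 0.63 ± 0.78 and 0.60 ± 0.80.

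The ER stress list was the other list with a median difference below 0 in each week, although its differences were small. At Week 18, 9 of its genes were lower and 8 higher. At Week 12 the mean level of the list was 1.36 in HF75 and 1.16 in LFC. Of 18 genes 13 had lower means, and the median was -0.41, with week medians of -0.46, -0.64, -0.44, -0.13 and -0.40 and values of -0.65 to -0.22 under the 20 other settings. 2 of 18 (11.1%) were lower in all 5 weeks, Hspa5 and Ddit3, beside 6.02% of all genes. Hspa5, the main chaperone of the ER, was at 5.18, 5.60, 4.95, 5.73 and 6.20 in LFC and at 3.98, 3.57, 4.91, 4.97 and 3.94 in HF75. It differed by -1.26 ± 0.48 (SE, log2), with almost no gap at Week 12 (-0.03), and HF75 Week 15 was the one array within the LFC range. Ddit3, a transcription factor of prolonged ER stress, differed by -0.42 ± 0.41. Atf4 differed by 0.49 and Xbp1 by -1.07, neither with an unadjusted p under 0.05.

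Macrophage genes showed no clear distance from the low fat level. The macrophage list had a median of 0.31 with 12 of 15 genes higher, 0 in all 5 weeks, and it was -0.08 without Week 12. Emr1, the F4/80 antigen, differed by 0.22, Cd68, a lysosomal protein, by 0.65 and Mrc1, the mannose receptor, by 0.66. Emr1 was lower after normexp background correction (-0.10) and without Week 12 (-0.18), and Cd68 was lower after normexp (-0.02). The inflammatory cytokine list had a median of -0.11, and its week medians were -0.40, -1.03, 4.23, -4.94 and 3.16, so that single weeks differed by far more than the mean, and the median was -1.07 without Week 12 and 1.46 without Week 15.

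Other immune and blood lists had positive medians that changed much between weeks. The neutrophil list had 15 of 15 genes with higher means and a median of 1.54, and its week medians were 0.15, -1.97, 4.89, -1.35 and 5.89. S100a9, a calcium-binding protein of neutrophil granules, was at 5.62, 10.14, 1.24, 5.07 and 0.91 in LFC and at 6.15, 7.89, 7.58, 0.66 and 8.40 in HF75. Its lowest levels were those of LFC Week 18, LFC Week 12 and HF75 Week 15, the 3 arrays titled BA. Its difference was 1.54 ± 1.79 (SE, log2), and -0.86 over Week 3 and 9 alone. The neutrophil median was -0.70 over these weeks and 0.46 with the title letters as a covariate.

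The mast cell median was 1.36 over 7 genes, 0.86 over Week 3 and 9 alone, and above 0 under all 20 other settings. By week it was -0.09, 1.37, 3.30, -0.34 and 2.09. In this list 6 genes had a higher mean in HF75 and 1 a lower mean, at -0.87. Its gene Cma1, a mast cell protease, was higher in all 5 weeks by 0.20 to 3.92. Cd3e, a chain of the T cell receptor complex, was at -4.47, -1.54, -3.39, -3.76 and -1.71 in LFC and at -2.18, -1.10, 0.99, -2.69 and 0.47 in HF75. It was higher in all 5 weeks, by 2.07 ± 0.63 (SE, log2), and was well above background on 2 LFC and on all 5 HF75 arrays. The T cell list as a group had a median of 0.37, with week medians from -2.30 at Week 3 to 3.32 at Week 12, and -0.22 without Week 12. The single gene thus did not stand for its list. Klrb1c, a receptor of natural killer cells, and Mpo, the neutrophil peroxidase, were also higher in all 5 weeks, by 1.98 ± 0.64 and 1.74 ± 0.82, with the LFC probe well above background on 1 and on 2 arrays. Cma1, Klrb1c and Mpo were chosen after their values were seen.

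The erythroid median was 0.87 over 7 genes (0.31 with the title letters as a covariate), and that of the B cell list 0.73 over 7 (0.005 without Week 12). In the erythroid list 2 genes were saturated on LFC Week 3 and 15 and on HF75 Week 3, 9 and 18, and 1 on both arrays of Week 12. Over the weeks without a saturated spot its median was 1.19, from 6 genes. The natural killer median was 0.42, and -0.06 without Week 12. That of alternative activation was 0.63, and -0.39 over Week 3 and 9 alone. Chemokines and receptors had a median of 0.46, which was -0.54 without Week 12 and -0.21 with the covariate, and MHC class II genes had -0.12. The sign of the natural killer, alternative activation and chemokine medians thus depended on the weeks used. The mesothelial and visceral fat list had 5 measured genes, with a median of 1.25, while its defining genes Wt1 and Upk3b were well above background on 0 of the 10 arrays. Interferon response genes had lower means in 17 of 20, with a median of -0.46 that was 0.33 without Week 15. Among them Ddx58, a sensor of viral RNA, was lower in all 5 weeks, by 1.60 ± 0.53 on average; it was chosen after its values were seen. Endothelial genes had a median of -0.51 and lower means in 13 of 15, and the median was -1.03 without Week 12 and 0.16 without Week 15. The fibroblast and collagen median was 0.12, and -0.42 over Week 3 and 9. The skeletal muscle median was 0.21, with week medians of -2.29, 0.20, -1.03, 3.81 and -0.07, and it was -1.12 over Week 3 and 9, -0.87 without Week 15 and 0.66 with the covariate. The cell cycle median was -0.14 and the antioxidant median 0.04.

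Of genes chosen across the whole array for their p, none passed either. By the rule for named genes, those with the smallest unadjusted p among genes lower in all 5 weeks were Chd1, Taf1, Ccrn4l, Abcc4, Rab6b, Tet3, Pprc1, Slc22a15 and Plec1, with differences of -2.17 (Rab6b) to -1.28 (Tet3). Since they were taken for their p, the values are a description. Pprc1, a coactivator related to the main regulator of mitochondrial biogenesis, was at 0.36, 0.91, -0.16, 1.95 and 0.95 in LFC and at -0.49, -1.16, -0.56, -0.63 and -1.22 in HF75. Its groups did not overlap, and the same holds for Abcc4, an exporter of cyclic nucleotides, and Tet3, an enzyme that oxidizes methylated cytosine. For Tet3 and Plec1 another probe lay the other way, at 0.68 and 0.26. Ccrn4l, a phosphatase with a daily rhythm also called nocturnin, differed by -1.85 ± 0.55 (SE, log2). Chd1, a chromatin remodeler, differed by -1.59 and Taf1, the largest subunit of the general factor TFIID, by -1.37, and 1 other probe of Taf1 was at 0.30.

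The counterparts that were higher in all 5 weeks were Ly6g6d, Giyd2, Col2a1, Med18, Vash1, Ahnak2, Ctf1, Ugt2b37, Iqcd and Mrap2, with differences of 1.71 (Mrap2) to 4.56 (Ugt2b37). Ugt2b37, a glucuronosyltransferase, was at -0.23, 0.98, -2.81, 0.19 and -3.75 in LFC and at 2.31, 3.45, 5.00, 1.08 and 5.35 in HF75. The groups did not overlap. Med18, a subunit of the Mediator complex, was at -2.22, -2.10, -2.45, -2.01 and -2.85 in LFC and at -0.64, 1.09, 1.45, -1.52 and 2.44 in HF75, again without overlap. Its probe was well above background on 3 LFC and on all 5 HF75 arrays. Med18 passed under 1 setting, the fit over all 39 arrays with the title letters (limma adjusted p = 0.0387), together with Ptp4a3, a phosphatase (0.0353).

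Genes that were at least 2-fold away in each single week were few. 37 of 16670 genes (0.222%) were at least 2-fold higher in HF75 in all 5 weeks, and 2 (0.012%) at least 2-fold lower. Without Week 15 the counts were 660 and 44, without Week 12 they were 111 and 37, without Week 3 71 and 14, without Week 9 61 and 9, and without Week 18 41 and 4. Both counts were 0 after normexp background correction. Of the 37, 25 are genes with clone, predicted or locus names, beside 27.3% of all genes. Their LFC probe was well above background on 3 or fewer of the 5 arrays in 25 of 37, beside 21.9% of all genes, and their median level was -2.88 in LFC and -0.40 in HF75. The genes that were higher throughout were thus mostly weak on the LFC arrays. This follows in part from how they were picked, since a probe could pass the filter through the 5 HF75 arrays alone. With only probes well above background on all 10 arrays the counts were 7 and 0, and with no filter on dim probes 43 and 2.

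Pon1, a serum esterase, was among the 37, at -4.65, -3.07, -2.04, -4.88 and 0.25 in LFC and at -1.72, 0.37, -0.12, 1.81 and 1.47 in HF75. It was well above background on 2 LFC and on all 5 HF75 arrays. Others of the 37 were Sema4d, a semaphorin of lymphocytes (2.49), Hoxa6, a Hox factor (1.94), and Tiam1, an exchange factor for Rac (1.64). Dicer1, the nuclease that cuts microRNA precursors, was 1 of the 2 lower genes, at 1.29, 0.37, 0.27, 1.40 and 2.21 in LFC and at -0.22, -0.63, -1.17, 0.13 and -2.56 in HF75. All HF75 arrays lay below all LFC arrays. It differed by -1.999 ± 0.64 (SE, log2), a 4.00-fold lower level, and was well above background on 5 LFC and on 4 HF75 arrays. The other was the predicted gene Gm9112 (-3.29). The genes of this paragraph were chosen after their values were seen.

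**Figure D4:**
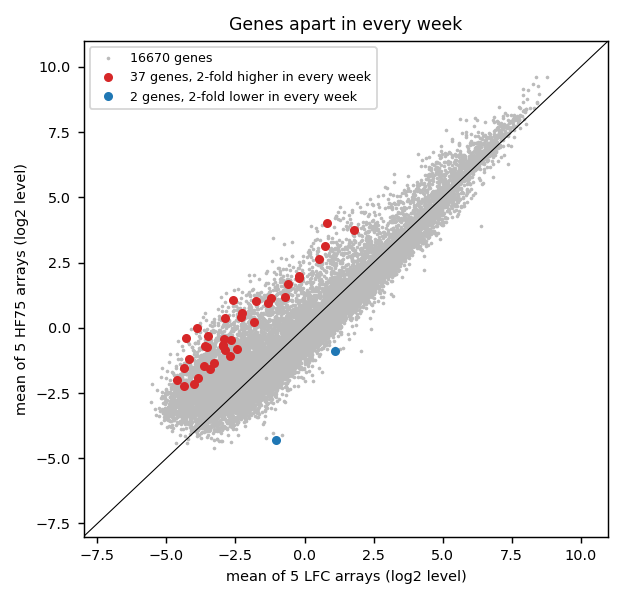
Each grey point is 1 of 16670 genes, with the mean level of the 5 LFC arrays on the x axis and that of the 5 HF75 arrays on the y axis (log2 relative to the 75th percentile), and the line marks equal levels. The 37 genes at least 2-fold higher in all 5 weeks (red) have a median LFC level of -2.88, towards the dim end, and the 2 lower genes are in blue.

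The same genes were set beside the high fat diet without KAL-1. Since HF75 minus LFC and HFC minus LFC share the LFC arrays, the values are given side by side with no measure of likeness. Between HF75 and HFC, 0 of 22585 probes passed the test (limma, 0% called, smallest adjusted p 0.764) and 1347 had an unadjusted p under 0.05. The HFC array of Week 12 stands apart, with Ucp1 at -3.18 against 5.26 to 6.70 on the other HFC arrays, so values with HFC are given with and without that week. HFC Week 9 carries the title letters (BA or BAT) as well, with a 75th percentile of 918 units. In that week the median of HFC minus LFC was -6.71 for the neutrophil list and -0.16 for lipogenesis. The values without Week 12 still hold this array and HF75 Week 15. The lipogenesis median was -1.82 for HFC minus LFC (-1.05 without Week 12) and -0.97 for HF75 minus LFC (-0.50 without Week 12), and for HF75 minus HFC it was 0.67 (0.76 without Week 12). Scd1 was lower in HFC in 5 of 5 weeks, by 3.08 on average with an SD of 0.42 over weeks (3.03 without Week 12), and Acly by 2.82 with an SD of 2.51 (2.23 without Week 12). HF75 lay above HFC in 3 of 5 weeks for Scd1 and in 4 of 5 for Acly, by 0.62 ± 0.74 and 0.72 ± 0.74 (SE, log2), differences no larger than their errors, and by 0.40 and 0.76 without Week 12. HF75 Week 15 is a lower bound for Scd1. Over the 4 weeks without a saturated spot the Scd1 difference of HF75 to HFC was -0.06 with an SD of 1.47. Ucp1, Cox8b, Car3, Fasn, Adipoq, Acadvl, Cfd and Cidea were saturated on HFC Week 9 as well.

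Elovl5, Bhlhb2 and Hspa5 lay below the low fat level under both diets on average and lower under HF75. For Elovl5 the difference to LFC was -0.53 in HFC and -1.16 in HF75 (-0.49 and -1.19 without Week 12), for Bhlhb2 -0.31 and -1.03 (-0.61 and -1.23), and for Hspa5 -0.32 and -1.26 (-0.67 and -1.56). HF75 was below HFC in 5 of 5 weeks for each of these 3 genes, by 0.63 ± 0.36, 0.73 ± 0.34 and 0.94 ± 0.35 (SE, log2), or 0.69, 0.61 and 0.89 without Week 12, and none had an adjusted p in limma under 0.764. These 3 genes were already lower than LFC in all 5 weeks on the same HF75 arrays, so that count is no independent support. The share of all genes below HFC in 5 of 5 weeks is not given here. Arntl differed from LFC by -0.88 in HFC and by -1.19 in HF75 (-1.05 and -1.32 without Week 12), and Prdm16 by -0.71 and -1.22 (-0.57 and -1.27). The median of the clock list was 0.06 for HFC minus LFC (-0.28 without Week 12), and that of the ER stress list 0.17 (-0.27 without Week 12). Over the 3 weeks without a saturated spot on either array Ucp1 differed from LFC by 1.25 in HFC, with an SD of 1.34. Over all 5 weeks Ucp1 differed from LFC by -1.28 in HFC with an SD of 4.53, and by 0.64 without Week 12, beside 1.49 in HF75. The brown adipocyte median of HFC minus LFC likewise turned from -1.24 to 0.09 without Week 12. The difference between HF75 and HFC in Ucp1 was 2.77 ± 1.39, and 1.04 with an SD of 1.47 over the 4 other weeks. Over the 3 weeks without a saturated spot, which include Week 12, it was 3.84 with an SD of 5.24.

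**Figure D5:**
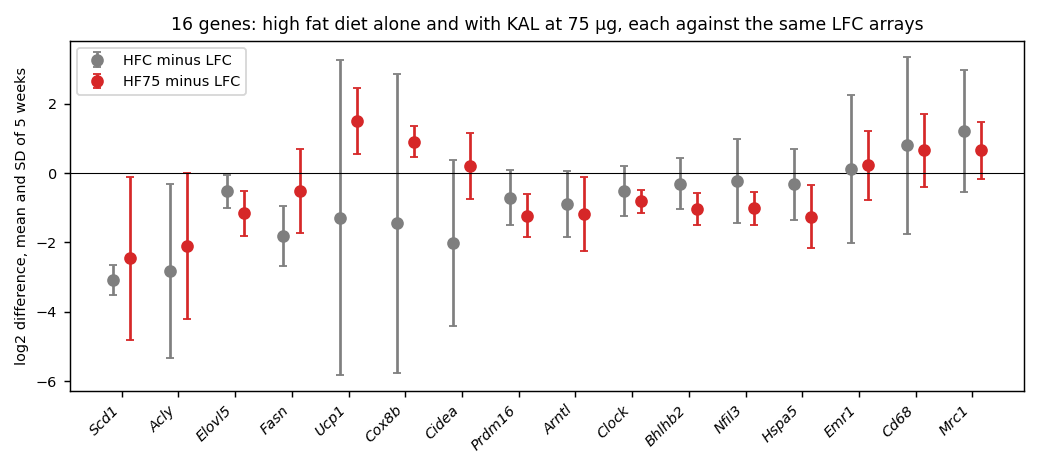
Points are the mean log2 difference to LFC over 5 weeks and bars its SD, for HFC in grey and HF75 in red, for 16 genes on the x axis. Both diets share the 5 LFC arrays, and Scd1 lies at -3.08 in HFC and -2.46 in HF75, while the wide bars of HFC for Ucp1, Cox8b and Cidea come with the HFC array of Week 12.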

How the data were processed

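Agilent 1-colour arrays were grouped by diet and week from the labels, which name the material as macrophages or stromal vascular cells of brown fat. The members and gene lists were chosen with earlier results of these data known. Per the file headers, the deposited scanner files hold spot intensity that was background-corrected by Agilent Feature Extraction 10.5.1.1 on array design 025293, with no normalization between arrays, whereas the submitters' processing notes name version 9.1. The 39 sample columns of the deposited series table were not used, and its values were made by the authors on a scale relative to LFC. Here the processed signal was taken as log2 minus the 75th percentile of the array. Spots marked as outliers were dropped (at most 0.516% of an LFC or HF75 array, 11.1% of HFC Week 12, and up to 71.4% of 1 array, HF20 Week 15, that enters only the larger fits), and replicate spots were averaged per probe. Testing was limited to probes for which at least 5 of the 10 arrays were well above background, in at least 4 weeks. A gene was read from its brightest probe. Arrays have no read depth, and their number and brightness limit precision.

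HF75 and LFC, and HF75 and HFC, were compared with limma 3.58.1 in R 4.3.3 with week as a block, two-sided, with Benjamini-Hochberg adjustment and a threshold of 0.05. Lists were described by counts and medians, without a test. Named genes were the 10 each way with the smallest p among genes with a gene name that were well above background on at least 8 arrays and had 1 sign in all 5 weeks, the brightest, the most different and the first genes of each list, and a fixed set from Scd1 to Mrc1, of which Lep was too dim to test. Some genes that the rule takes are not reported here. Alternatives were other scalings, background correction (normexp, offset 50), filters, blocks (statmod 1.5.0), array weights, a plain t-test of the kind the study's methods name (not paired), fits with more arrays, the title letters and the leaving out of each week. The leaving out of weeks with a saturated spot was chosen after seeing the data. The test was tried on simulated data with 200 probes changed. Promoter sequence was read from RefSeq on GRCm38.p6 and matched by symbol. Other computation used Python 3.11.15, numpy 2.4.6 and pandas 2.3.3, and figures matplotlib 3.10.9.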

Additional observations from a re-analysis of the deposited data

Results flagged for a closer look

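Of 165 groups of 5 arrays (levels of a list or of a named gene in 1 diet), 11 had a lowest or highest array whose gap to the nearest, divided by the range of the group, was above the critical value of 0.71, and chance gives about 1 in 20. HF75 Week 15 was that array in 9 of the 11. It was the highest for the brown adipocyte list (0.75), the lipid storage and lipolysis list (0.71), the circadian clock list (0.738) and Ccrn4l (0.731). It was the lowest for the T cell list (0.817), the chemokines and receptors list (0.804), the B cell list (0.731), the natural killer and cytotoxic list (0.731) and Cd68 (0.717). It is also the HF75 array with BA in the title and the brightest one, and the part of either in these levels was not tested. LFC Week 3 was the highest array for the mast cell list (0.751), and LFC Week 18 the lowest for Sema4d (0.768).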

How the results depend on the processing

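No probe passed between HF75 and LFC under any of the 20 alternatives except the fit over 39 arrays with the title letters, where 2 passed (Med18 and Ptp4a3, both higher, limma). Between HF75 and HFC the same fit gave 2 and the others 0. The number with an unadjusted p under 0.05 ran from 108 (normexp) to 3968 (array weights) beside 1333. It was 3022 without Week 15, 774 without Week 3, 521 without Week 9 and 599 without Week 18. Of the 1333, 893 were higher and 440 lower, while the plain t-test gave 812 and 1130, and the filter for probes well above background on all 10 arrays 221 and 324. The percentile over probes well above background moved the median probe difference from -0.09 to 0.05.

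The count of genes at least 2-fold higher in all weeks, 37, was 0 with normexp, 7 with the filter on all 10 arrays and 1016 over Week 3 and 9 alone, and 41 to 660 when 1 week was left out. The count of lower genes, 2, was 5 with quantile normalization, 0 with normexp, 0 with that filter, 316 over Week 3 and 9, and 4 to 44 when 1 week was left out. Of 540 list medians under other settings, 537 moved by less than the SD of the week medians. That SD ran from 0.18 (ER stress) to 3.65 (inflammatory cytokines), so it is a wide measure. The sign held under 12 of 20 settings for inflammatory cytokines and 13 for the brown adipocyte and antioxidant lists. It held under all 20 for the lipogenesis, sterol synthesis, mast cell, erythroid, mesothelial, ER stress and clock lists. With weeks of a saturated spot left out for each gene, chosen after seeing the data, all list medians moved by less than that SD, while the general adipocyte median turned from 0.17 to -0.07, the antioxidant median from 0.04 to -0.02 and Adipoq from 0.17 to -0.62. Of 1095 differences of named genes, 12 changed sign and 1 became called (Med18). Most of these genes were chosen for 1 sign in all 5 weeks, so leaving out weeks could not turn their sign. The count is therefore no measure of stability. All 12 changes fell in Adipoq, Emr1, Cd68, Cidea and S100a9, which were not chosen that way. Adipoq was -0.13 with normexp, -0.48 over 39 arrays, -0.17 over 39 arrays with the title letters, -0.08 without Week 9 and -0.66 without Week 15. Emr1 was -0.10 with normexp and -0.18 without Week 12, Cd68 was -0.023 with normexp, Cidea was -0.085 with normexp and -0.18 without Week 12, and S100a9 was -0.86 with array weights and -0.86 over Week 3 and 9. With 1 week left out in turn, Adipoq ran from -0.66 to 1.06, Emr1 from -0.18 to 0.44 and Cidea from -0.18 to 0.46. The cause of these shifts was not tested.

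The weeks are a label shared by both diets and not litters or animals. The correlation of same-week deviations was 0.413, 0.401, -0.427, -0.437 and -0.083, so the pairing does not hold at every week. Without the replicate block 0 probes passed, with adjusted p values of 0.542 or above (limma). With scan date as a random block 0 passed as well. LFC and HF75 shared a scan date at 3 weeks. The mean of the week medians of the clock list was -0.42 there beside -1.03 at the 2 other weeks, and that of lipogenesis -0.71 beside -1.05.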
